A study of Mus musculus with 13 samples.

Results

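The surface ectoderm of E8.5 and E10.5 mouse embryos was taken as 614 cell barcodes chosen by their counts. A barcode was a member when it held at least 2000 UMIs and 500 genes, at least 3 UMIs of Epcam, at least 2 UMIs in the sum of Wnt6, Krt5, Krt14, Sostdc1 and Trp63, no UMI of Foxa2 and at most 5 UMIs of Ttr. The UMI, or unique molecular identifier, tags each captured transcript, so PCR copies of 1 transcript add 1 to its count. The 614 members were among 34605 barcodes of the 3 embryo libraries that passed the limits on UMIs and genes, and among 76191 such barcodes of all 10 matrices. Levels of the 8 genes of this rule chose the members and are given below only as a description.

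Surface ectoderm is the outer epithelium of the embryo. It forms the epidermis and its appendages, the lining of the mouth, the cranial placodes that give rise to the lens, inner ear and olfactory epithelium, and the apical ectodermal ridge that directs limb outgrowth. At these stages it is a simple epithelium that is held together by claudins and cadherins, has keratins 8 and 18 as its first intermediate filaments, and later turns on keratins 5 and 14 under the transcription factor p63, the product of Trp63. It exchanges Wnt, BMP, FGF and PDGF signals with the mesenchyme beneath it.

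The series profiled wild-type C57Bl/6J mice by droplet single-cell RNA sequencing, from embryos at E8.5 and E10.5 and from hearts of later stages, E12.5 to postnatal day 3. Per the paper's methods, the head and limbs of the E8.5 and E10.5 embryos were cut off before digestion, and the paper does not say how many embryos were combined in a library. No treatment or genetic change was applied to any animal. E10.5 had 2 libraries, described as biological replicates, and E8.5 had 1 library, replicate 2 (the other E8.5 library was not used here).

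The kept barcodes numbered 5657 in the E8.5 library, 14667 in E10.5 replicate 1 and 14281 in E10.5 replicate 2. Members had a median of 27822 UMIs at E8.5 and of 20765 and 20999.5 UMIs at E10.5, so that 1 UMI was a smaller fraction of a member's RNA at E8.5. A doublet caller marked 10, 43 and 23 members in the E8.5 library and E10.5 replicates 1 and 2. These were 5.35%, 18.8% and 11.6% of members, beside 4.53%, 11.7% and 2.69% of all kept barcodes. The caller's own threshold was used in E10.5 replicate 2 alone and an expected rate in the others, so the counts are not alike between libraries. Mixed barcodes, which held over 1% globin UMIs or at least 3 UMIs in the sum of the endothelial genes Cdh5 and Pecam1 and the cardiac genes Tnnt2 and Nkx2-5, made up 5, 6 and 9 members. No member barcode sequence was shared between libraries. Below, 3 values in a row are those of the E8.5 library, E10.5 replicate 1 and E10.5 replicate 2, and CPM is the members' summed UMIs of a gene per 1000000 of all their UMIs.

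Members made up 187 of 5657 kept barcodes at E8.5, or 3.31% (exact 95% binomial interval 2.86% to 3.81%). They made up 229 of 14667 in E10.5 replicate 1, or 1.56% (1.37% to 1.78%), and 198 of 14281 in E10.5 replicate 2, or 1.39% (1.20% to 1.59%). The E8.5 share lay above both E10.5 shares and their intervals, which overlapped each other, and the intervals cover counting error only. When barcodes were thinned to 5000 UMIs before the rule was applied, the shares were 0.193%, 0.183% and 0.138% with intervals that overlapped, and thinned to 12000 UMIs they were 1.92%, 1.12% and 0.878%. With 1 library at E8.5, stage and library cannot be told apart. Among all Epcam-positive barcodes, 526, 571 and 534 in number, members were 35.6%, 40.1% and 37.1%. The other Epcam-positive barcodes comprised 78, 91 and 82 with Foxa2, a factor of gut endoderm and notochord, 69, 22 and 21 with over 5 UMIs of Ttr, a transport protein of visceral endoderm and liver, and 192, 229 and 233 that had too few UMIs of the 5 ectoderm genes. In the heart libraries, the same rule found 0 members in 41586 kept barcodes, which allows a share of up to 0.00721%, and 1 Epcam-positive barcode.

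**Figure D1:**
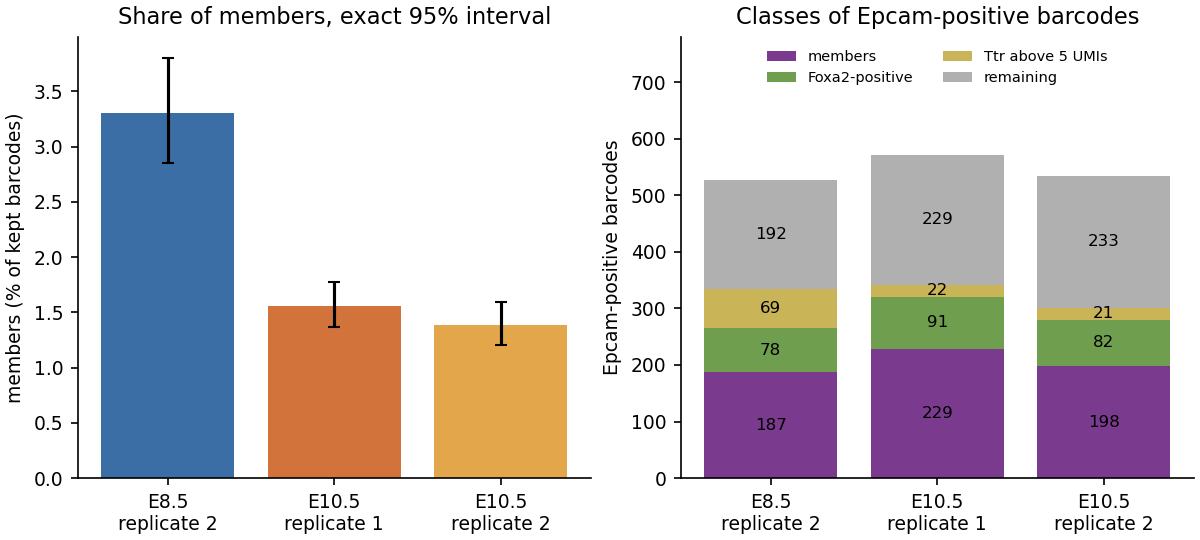
Left, the percentage of kept barcodes that were members in each of the 3 embryo libraries, with exact 95% binomial intervals. Right, the number of Epcam-positive barcodes in each library, split by bar colour into members, Foxa2-positive, Ttr-high and remaining barcodes. The E8.5 share of 3.31% stands above the E10.5 shares of 1.56% and 1.39%.

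Wnt6 was the gene of the marker sum seen in most members. It was seen in 89.3%, 84.7% and 79.3% of them, and 61, 48 and 50 members would have been lost without it. Sostdc1, a secreted BMP and Wnt antagonist, was seen in 62.0%, 63.8% and 60.1%, and Trp63 in 40.1%, 62.0% and 55.6%. The keratins of the basal epidermis were sparse: Krt5 was seen in 5.88%, 12.7% and 10.1% of members, and Krt14 in 16.6%, 29.7% and 32.3%. Members just inside the limit, with a marker sum of 2, numbered 25, 27 and 28, and Epcam-positive barcodes just outside it, with a sum of 1, numbered 56, 56 and 42. Members with exactly 3 UMIs of Epcam numbered 24, 62 and 55, and 36, 92 and 88 barcodes with 2 UMIs met every other condition. Foxa2 alone kept out 3, 16 and 14 barcodes. Ttr kept out 2, 0 and 0 barcodes that met the limits on Epcam and the marker sum, whatever their Foxa2.

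Cldn6, a claudin of early embryonic epithelia, was the 1 marker given for these cells that the rule did not use. It stood at 215, 162 and 149 CPM and was seen in 96.3%, 89.5% and 87.4% of members. Endothelial barcodes of the same libraries, which should lack it, had it at 1.16, 0.659 and 0.384 CPM, and 4.14%, 1.61% and 0.985% of them held a UMI at median depths of 31307, 20483 and 21382 UMIs. Thinned to 5000 UMIs each, 58.8%, 54.9% and 47.5% of members and 0%, 0.239% and 0.253% of endothelial barcodes held a UMI. Cldn6 did not set the members apart from other Epcam-positive barcodes, where it stood at 219, 185 and 209 CPM.

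The simple-epithelium keratins Krt8 and Krt18 were abundant in members, at 231, 152 and 156 CPM and at 347, 219.5 and 236 CPM. Keratins did not set the members apart from other Epcam-positive barcodes. Of 5 outside the rule with enough counts to compare, none was at least 2-fold higher or lower in all 3 libraries. Of 16 measured genes of periderm and cornification, 5 were at 0 in the members of every library: the cornified-envelope gene Ivl, Cdsn, Dsg1a and the periderm keratins Krt6a and Krt13. The hemidesmosome collagen Col17a1 was also at 0. Krt10, of the periderm and cornification list, was present, at 33.8 CPM in the largest cluster described below and 31.1 CPM in the other members. Some clusters of members go against the label and are described below. They hold 12 members, led by nephric duct genes, 48, led by muscle genes, and 63, led by Pax1 and Pax9.

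Against the other Epcam-positive barcodes, 31 of 4274 genes with sufficient counts (0.725%) were at least 2-fold higher in members in all 3 libraries, and 16 (0.374%) were at least 2-fold lower. The rule chose the members within the same barcodes, so these folds, computed after adding 1 CPM, are a description and were not tested. Among genes outside the rule, the first by lowest fold was Bhlha9, a basic helix-loop-helix gene known from the limb apical ridge. It stood at 43.5, 35.7 and 22.0 CPM in members and at 3.70, 0.265 and 1.39 CPM in the others.

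Transcription factors of the ectoderm lineage were among the next. Tfap2a was 3.81-, 3.93- and 4.20-fold higher and Tfap2b 4.60-, 7.80- and 8.30-fold higher, both AP-2 factors of ectoderm and neural crest. The homeobox genes Msx1 and Msx2, which respond to BMP, stood at 81.6, 93.6 and 66.5 CPM and at 27.1, 50.3 and 36.1 CPM, and their lowest folds were 2.55 and 3.52. The basic leucine zipper gene Batf3 was 3.50- to 3.74-fold higher.

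Of the lists of signals and junctions, 1 of 4 Wnt, 2 of 9 BMP, 1 of 7 FGF and PDGF, none of 7 other signalling and 1 of 15 junction genes with sufficient counts were higher in members. Wnt4 stood at 38.0, 85.5 and 57.1 CPM, 6.23- to 6.77-fold above the others. Pdgfa, the ligand for the PDGF receptor alpha of mesenchyme, was the most abundant of the 15 genes outside the rule with the highest lowest fold. It stood at 319, 468 and 427 CPM in members against 99.1, 130.3 and 132 CPM in the others, and was seen in 96.3%, 90.0% and 93.4% of members. The neurotrophin gene Ntf5 was 5.79- to 9.15-fold higher. Perp, a desmosome gene controlled by p63, stood at 60.5, 128 and 81.3 CPM. Sfn, a gene of stratified epithelia, was 4.02- to 6.47-fold higher, and Ahnak and Stard8 belonged to the group.

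Hapln1, a link protein of hyaluronan matrix, stood at 128, 111 and 80.1 CPM in members and at 13.8, 15.4 and 7.21 CPM in other Epcam-positive barcodes. It did not mark ectoderm among all cells, since endothelial barcodes held it at 325, 234 and 230.4 CPM. On the other side, the visceral endoderm and liver genes Afp, Apoa2 and Rbp4 were lower in members, with Rbp4 at 2.85, 1.75 and 4.11 CPM against 257, 142 and 107 CPM. The rule had put Ttr-high and Foxa2-positive barcodes among the others, and against the remaining class alone 5 genes were at least 2-fold lower in members, none of them among the 16. When cells were thinned to 5000 UMIs before the rule was applied, which left 10, 23 and 17 members, 7 of the 15 genes with the highest lowest fold stayed at least 2-fold higher in all 3 libraries. Bhlha9, Wnt4, Sfn, Tfap2a, Batf3, Stard8 and Msx1 did not, and the lowest fold of the 15 was 0.0326.

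**Figure D2:**
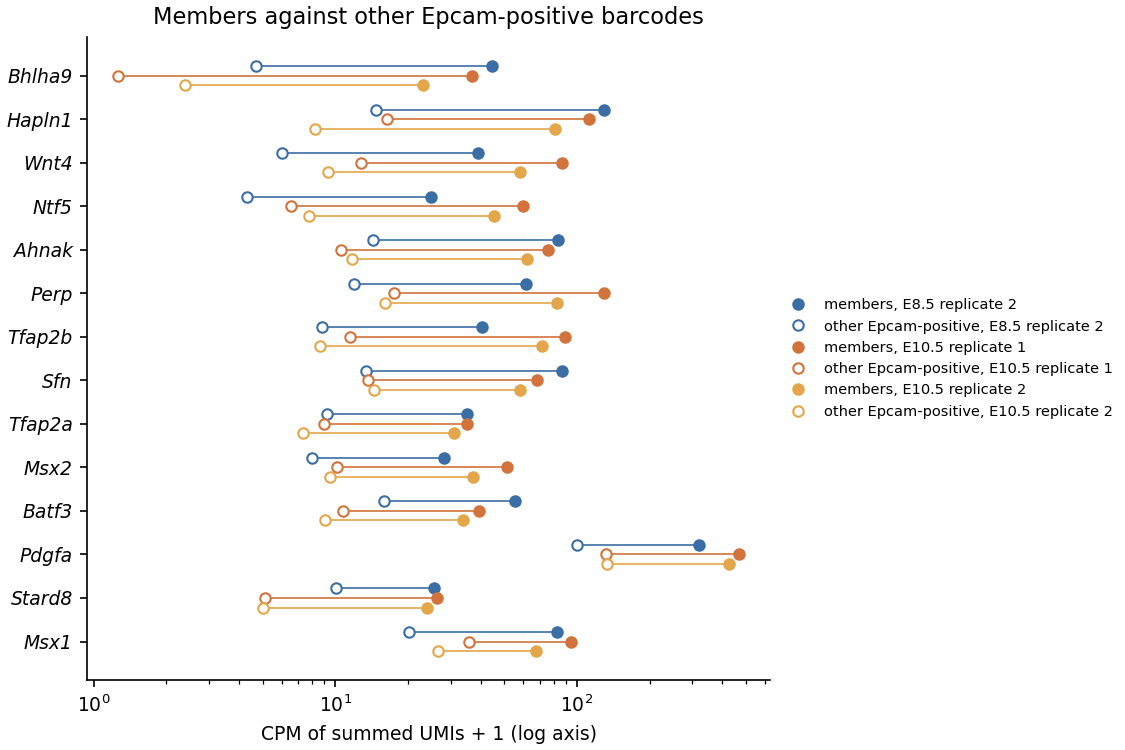
CPM of summed UMIs plus 1, on a log axis, for 14 of the 15 genes with the highest lowest fold, with filled points for members and open points for other Epcam-positive barcodes of the same library (colours). In all 14 genes the filled point lies to the right of the open point of its library, with the smallest fold 2.55.

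The comparison of E10.5 with E8.5 asked how the members changed over these stages. UMIs were summed per library and class of Epcam-positive barcodes and fitted with edgeR's quasi-likelihood test over 12369 genes, where the lone E8.5 library was assumed to vary like the E10.5 libraries. At an adjusted p under 0.05, 2124 genes (17.2%) changed in members, 1062 upwards (8.59%) and 1062 downwards (8.59%). Scaled by total UMIs in place of TMM, the split was 1334 higher and 816 lower. DESeq2 called 982 genes, of which 978 were among the 2124, and of the 24 largest changes named below it did not call Actc1, Bmp2, Cxcl14, Rhox5, Slc2a3 and Upk1a. Thinning to 5000 UMIs before the rule left 1887 genes to test, of which 86 were called. Of 150 called genes that were named or held in a list, 44 had a value there. Among these 44, 8 kept their call, 28 lost it and 8 turned sign (Rhox5, Ifitm1, Tfap2b, Ntf5, Cldn7, Col4a1, Crabp2 and Ccnd1). Because these are sums over members, more cells of a kind and more RNA per cell cannot be told apart, and the p-values rest on the spread between the E10.5 libraries. That spread was estimated over all 4 classes of Epcam-positive barcodes together, with 4 residual degrees of freedom, and is not one of members alone.

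Ectoderm transcription factors changed in both directions. Of 27 tested, 9 rose (among them Tfap2b, Dlx2, Msx2, Gata3, Klf4, Pitx1 and Id2), 3 fell (Dlx6, Hand1 and Id1) and 15 were not called, with a median log2 change of 0.13 against 0.05 over all genes tested. DESeq2 called 5 of them upwards and none downwards, and the stricter rule 6 and 1. Pitx1, a homeobox factor of oral ectoderm and hindlimb, stood at 11.2, 63.7 and 72.9 CPM, both E10.5 values far above the E8.5 value, a log2 change of 2.53 ± 0.25 (SE, edgeR adjusted p = 5.4e-07). Tfap2a stood at 34.2, 34.2 and 30.0 CPM and was not called, nor was Grhl2, a factor of epithelial junctions, at 18.8, 17.3 and 13.1 CPM. Of the genes of the rule, Trp63 read 22.3, 67.0 and 54.4 CPM, Krt5 3.18, 8.94 and 8.21 CPM, and Krt14 8.54, 30.5 and 24.0 CPM.

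Of the structural genes of the simple epithelium, a minority passed the test, beside 17.2% called over all genes. Among 9 tested keratins outside the rule, 3 fell, none rose and 6 were not called. Krt8 read 231, 152 and 156 CPM and fell by 0.66 ± 0.10 on the log2 scale (SE, edgeR adjusted p = 5.2e-05), Krt18 fell by 0.68 ± 0.11, and Krt19 by 0.50 ± 0.15 from 55.8 to 43.5 and 39.2 CPM. Among 25 junction genes, 5 fell, 2 rose and 18 were not called. DESeq2 called 2 keratins and 1 junction gene, all downwards. The claudins Cldn6 and Cldn7, the tight-junction scaffold Tjp1 and the desmosome genes Dsp and Pkp2 fell, with Dsp at 40.2, 25.4 and 24.8 CPM, while Perp, at 60.5, 128 and 81.3 CPM, and Cldn23, at 1.00, 5.83 and 3.90 CPM, rose. The adherens-junction genes Cdh1, at 35.7, 29.5 and 28.5 CPM, and Cdh3, at 33.3, 42.9 and 40.5 CPM, were not called.

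Of 10 genes of epithelial splicing and membrane proteases, the trafficking gene Rab25 and the protease gene Prss8 fell and the protease gene St14 rose. DESeq2 called 1 of them, Rab25, and none was called in the added thinnings. The basement membrane list had 2 of 18 genes called, both upwards, beside 17.2% called over all genes. DESeq2 called 1 of the 18 and the stricter rule none. The 2 genes were the collagen IV chains Col4a1, at 27.6, 51.9 and 49.7 CPM, and Col4a2, at 40.2, 71.5 and 62.2 CPM. Among 8 tested genes of periderm and cornification, Sfn alone was called, and it fell from 85.9 to 67.0 and 57.1 CPM. That call was lost with DESeq2, without marked doublets, with the stricter rule, in the added thinnings and without the clusters led by another cell type.

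Of 20 tested genes of the Wnt pathway, 7 rose and none fell, with a median log2 change of 0.80. The transcription factor gene Lef1, a mediator and target of the pathway, stood at 11.2, 34.2 and 30.6 CPM and rose by 1.45 ± 0.21 (SE, edgeR adjusted p = 5.1e-05). The ligands Wnt4, at 38.0, 85.5 and 57.1 CPM, and Wnt3, at 3.52, 11.1 and 9.04 CPM, the feedback inhibitor Nkd1, at 8.21, 34.8 and 23.8 CPM, and the secreted antagonists Sfrp1 and Sfrp2 rose as well. Rspo2, an enhancer of Wnt signals, stood at 0.335, 3.30 and 4.72 CPM. Other ligands and the target Axin2, at 28.8, 27.0 and 22.2 CPM, were not called, and DESeq2 called 3 genes of the list, all upwards. Wnt6, a gene of the rule, read 181, 307 and 194 CPM.

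The BMP list had 6 of 16 genes that rose and 2 that fell. Bmp4 and Bmp2, ligands of the same subgroup, went opposite ways in edgeR's test. Bmp4 stood at 22.1, 58.7 and 66.9 CPM and rose by 1.43 ± 0.17 (SE, edgeR adjusted p = 3.5e-06), and Bmp2 stood at 27.6, 8.16 and 9.45 CPM and fell by 1.72 ± 0.27 (SE, edgeR adjusted p = 0.00014). The targets Id2 and Id1 also split, at 187, 304 and 344 CPM and at 279, 169.6 and 188 CPM. DESeq2 called 4 genes of the list upwards and none downwards, so neither Bmp2 nor Id1, and Bmp2 also lost its call when thinned to 12000 UMIs. The inhibitors Bambi, Smad7 and Fst and the target Msx2 rose, with Bambi at 56.8, 119.7 and 90.2 CPM.

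Among 19 FGF and PDGF genes, 7 rose and 1 fell. Fgf8, the ligand made by the apical ridge and by pharyngeal and oral ectoderm, stood at 39.9, 140.5 and 119.9 CPM and rose by 1.63 ± 0.16 (SE, edgeR adjusted p = 3.1e-07), and 24.6%, 35.4% and 33.8% of members held a UMI. Pdgfa rose by 0.41 ± 0.12 and Pdgfc, at 17.6, 43.5 and 43.7 CPM, by 1.23 ± 0.18. The receptor gene Fgfr2, whose epithelial form receives Fgf10 from mesenchyme, stood at 29.6, 54.2 and 43.9 CPM. Fgf17 fell from 20.8 to 9.33 and 13.3 CPM, in the opposite direction to Fgf8. DESeq2 called 3 genes of the list upwards and none downwards, and the stricter rule 3 and 2. Fgf10 and Pdgfra, both better known from mesenchyme, were low, at 2.01, 6.41 and 6.98 CPM and at 0.837, 4.08 and 5.34 CPM.

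Of 22 other signalling genes, 7 rose and 2 fell. DESeq2 called 3 upwards and 1 downwards and did not call Cxcl14, and the stricter rule called 4 and 2. Cxcl14, a chemokine of epidermis, stood at 14.1, 99.5 and 77.4 CPM and rose by 2.58 ± 0.36 (SE, edgeR adjusted p = 3.8e-05). Notch1, Sema3c, the Hedgehog receptor gene Ptch1 and the retinoic acid synthesis gene Aldh1a3 rose, with Ptch1 at 11.1, 24.7 and 31.0 CPM. Edn1, the endothelin of pharyngeal arch epithelium, fell from 21.1 to 8.74 and 9.45 CPM, and the retinoic acid binding gene Crabp2 fell from 342 to 243 and 251 CPM.

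**Figure D3:**
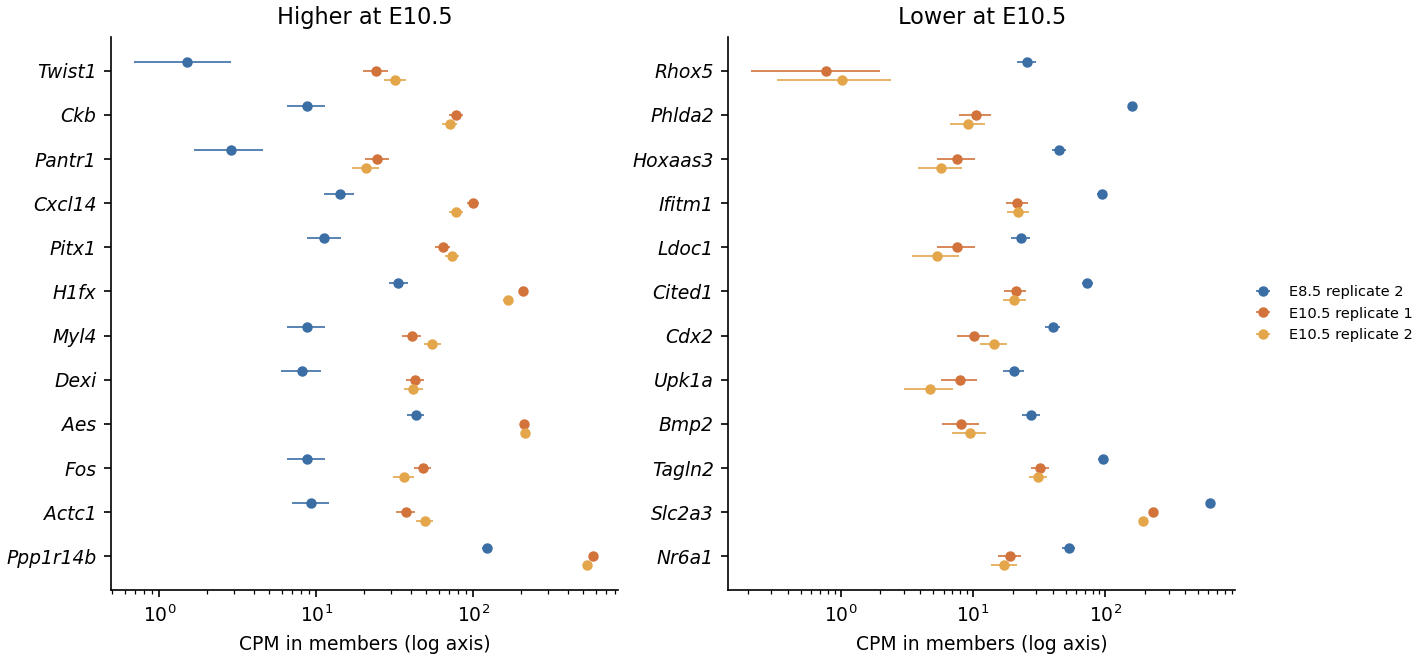
CPM in members, on a log axis, for the 12 genes with the largest rise (left) and the 12 with the largest fall (right) among called genes with at least 20 CPM at the higher stage. Points are the 3 libraries (colours) with exact 95% Poisson intervals, which cover counting error only. In all 24 genes both E10.5 points lie on the same side of the E8.5 point.

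The largest rise among genes with at least 20 CPM in the members of both E10.5 libraries was that of Twist1, a factor of mesenchyme, at 1.51, 23.9 and 31.6 CPM, a log2 change of 4.09 ± 0.43 (SE, edgeR adjusted p = 9.7e-07). It was seen in 3.74%, 15.3% and 18.2% of members, and its call was lost when barcodes were thinned to 12000 UMIs before the rule. Next came the brain creatine kinase gene Ckb, at 8.71, 77.3 and 70.6 CPM, the noncoding Pantr1, Cxcl14 and Pitx1. The linker histone gene H1fx, at 33.3, 207 and 165 CPM, Dexi, the corepressor gene Aes, at 42.9, 209.8 and 215 CPM, and Ppp1r14b, at 122, 574 and 529.8 CPM, also rose. The same 4 genes were also higher at E10.5 in Foxa2-positive barcodes, where H1fx read 56.5, 262 and 207 CPM and Ppp1r14b 96.7, 521 and 481 CPM. The muscle genes Myl4 and Actc1 and the immediate early gene Fos complete the 12 and are taken up below.

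The largest falls were Rhox5, a homeobox gene of extraembryonic tissue and germline, at 25.5, 0.777 and 1.03 CPM, and Phlda2, an imprinted gene that limits placental growth, at 159, 10.49 and 9.24 CPM. Phlda2 fell by 4.08 ± 0.26 (SE, edgeR adjusted p = 2.0e-09) and was seen in 42.2%, 13.97% and 10.6% of members, whereas Rhox5 was held by 5.35% of E8.5 members and was higher at E10.5, by 3.19 on the log2 scale, when barcodes were thinned to 5000 UMIs before the rule. The other large falls were in the noncoding Hoxaas3, Ifitm1, Ldoc1, Cited1, Cdx2, Upk1a, Bmp2, Tagln2, Slc2a3 and Nr6a1. Those of Cdx2, Ldoc1 and Upk1a moved by more than their SE without E10.5 replicate 1, and that of Cdx2 also without E10.5 replicate 2. The glucose transporter gene Slc2a3 stood at 619.8, 229 and 192 CPM, and Ifitm1 at 94.6, 21.6 and 22.0 CPM.

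Of 10 tested genes known from trophoblast and chorion, 6 fell (Elf5, Ascl2, Cdx2, Hand1, Rhox6 and Rhox9) and Gata3 rose, with a median log2 change of -1.75, or -1.44 with genes at 0 in 1 stage set at their bound. DESeq2 called 1 of them downwards and the stricter rule 2, and Hand1 turned to 1.24 when thinned to 12000 UMIs. Elf5 stood at 6.87, 0 and 0.411 CPM and was seen in 12.3% of E8.5 members, and its log2 change of -4.94 was -7.69 without E10.5 replicate 2. Rhox6 and Rhox9 were at 0 in the E10.5 members of both libraries, at least 2.99-fold and at least 2.45-fold lower than at E8.5 when set against 3 UMIs per library, and 1.60% and 2.14% of E8.5 members held a UMI of them. Cdx2 is also a factor of the hindgut and tail, and Hand1 of lateral mesoderm. Cdx2 stood at 40.0, 10.1 and 14.4 CPM.

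Regional genes of the head rose in part. In the oral and pharyngeal list, 4 of 9 tested genes rose, among them Pitx1, Isl1 and Foxe1, and Otx2 fell. Isl1 stood at 13.6, 34.4 and 38.0 CPM, Otx2 at 32.3, 13.0 and 13.6 CPM, and Foxe1, at 0.335, 4.66 and 16.2 CPM, rested on 2 UMIs at E8.5 and rose by 4.73 on the log2 scale, or 3.58 without E10.5 replicate 2. In the cranial placode list, 6 of 17 genes rose and Pax3 fell. Sox2 stood at 34.3, 62.4 and 81.9 CPM and Six3 at 15.1, 27.6 and 46.2 CPM. Oc90, a gene of the otic vesicle, was at 0 in E8.5 members and at 7.77 and 18.7 CPM at E10.5, at least 15.5-fold higher when set against 3 UMIs. Of 13 genes of the apical ectodermal ridge, 5 rose (Fgf8, Msx2, En1, Rspo2 and Cyp26b1) and 2 fell (Fgf17 and Dlx6), with En1 at 1.34, 19.2 and 11.7 CPM. DESeq2 called 3 oral and pharyngeal genes upwards, 2 placode genes upwards and 1 downwards, and 1 ridge gene upwards. The head and limbs, where much of this ectoderm lies, had been cut off before digestion.

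Hox genes, which mark position along the body axis, changed in both directions. Of 34 tested, 22 were not called, Hoxa2, Hoxa3, Hoxb2, Hoxb3, Hoxd10 and Hoxd11 rose and Hoxa7, Hoxa9, Hoxb9, Hoxc9, Hoxc10 and Hoxd9 fell. Hoxb2 stood at 40.9, 60.2 and 74.1 CPM, and Hoxa9 at 29.0, 10.3 and 13.8 CPM, a fall of 1.35 ± 0.20 on the log2 scale (SE, edgeR adjusted p = 6.9e-05). Hoxd10 and Hoxd11 were low, at most 4.11 and 5.25 CPM. DESeq2 called 3 Hox genes upwards and 2 downwards. The cluster led by Cdx2 and Hoxc10 held 16.04%, 3.49% and 3.54% of the members, and its part in these changes was not tested.

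Of 16 cell cycle genes, 6 fell (Mki67, Cdk1, Aurka, Birc5, Pcna and Ccne2) and 2 rose (the cyclin D genes Ccnd1 and Ccnd2). Mki67 stood at 64.5, 44.5 and 44.2 CPM, and Top2a, at 202, 179 and 201 CPM, was not called. DESeq2 called 2 of the list upwards and 2 downwards, and the stricter rule 1 and 3. Among 14 imprinted and growth genes, Cdkn1c, an inhibitor of the cell cycle, at 52.1, 190.0 and 241 CPM, and Dlk1, at 74.5, 248 and 312 CPM, rose with Grb10. Lin28a, an RNA-binding protein of early embryonic cells, stood at 145, 56.7 and 66.3 CPM and fell by 1.32 ± 0.12 (SE, edgeR adjusted p = 2.0e-07), and Lin28b fell with it.

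**Figure D4:**
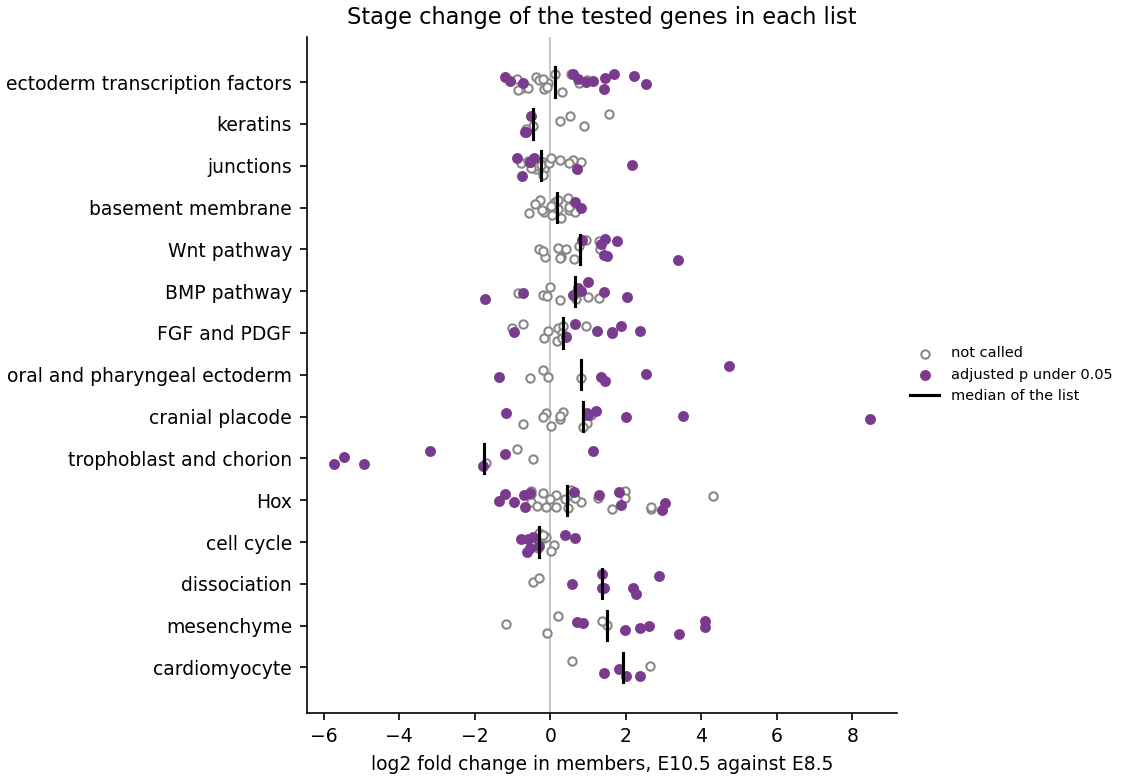
Log2 change in members from E8.5 to E10.5 for each tested gene of 15 lists. Filled points have an edgeR adjusted p under 0.05, open points do not, and bars mark list medians. Junction, cell cycle and trophoblast genes sit mostly to the left of 0, and Wnt pathway, mesenchyme and dissociation genes mostly to the right, and points beyond 5 rest on genes at 0 in 1 stage.

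Genes of other cell types and of cell handling moved with the stage. Of 9 tested immediate early and heat shock genes, 7 rose (Fos, Fosb, Jun, Junb, Jund, Egr1 and Ier2), their list summing to 212, 465 and 429 CPM in members and to 233, 482 and 549.6 CPM in Foxa2-positive barcodes. Fos stood at 8.71, 47.4 and 35.9 CPM. Their part in the other changes was not tested. Of 13 mesenchyme genes, 8 rose and none fell, and the list summed to 179, 287 and 319.6 CPM in members and to 415, 741 and 758 CPM in barcodes of 10 to 100 UMIs, taken as a measure of free RNA. The sum included Prrx2, which was not called, at 27.1 CPM in the largest cluster described below and 99.4 CPM in the other members. It also included Vim, at 58.6 and 74.8 CPM. Mesenchyme genes that rose included Twist1, Twist2, Prrx1, Col3a1 and Snai2, and 7 of 13 rose when marked doublets were left out, but none of 8 when barcodes were thinned to 12000 UMIs before the rule was applied.

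Of 6 tested cardiomyocyte genes, Myl4, Myl7, Tnni1 and Tnnt2 rose, and their list summed to 64.5, 220 and 205 CPM. With mixed barcodes left out, none of 5 was called and Tnnt2 and Tnni1 changed sign, and none was called without marked doublets or without the clusters led by another cell type. Thinned to 12000 UMIs before the rule, Myl4 and Actc1 read -1.68 and -0.99 on the log2 scale. Of 6 erythroid genes tested, the embryonic globin genes Hbb-bh1 and Hbb-y rose, and all 6 rose with mixed barcodes left out. The list summed to 124, 659 and 456 CPM in members and to 5174, 7621 and 11624 CPM in barcodes of 10 to 100 UMIs. Endothelial genes summed to 75.9, 61.6 and 59.6 CPM. Egfl7 stood at 37.4 CPM in the largest cluster described below and at 51.2 CPM in the other members. The other endothelial genes, Cdh5, Pecam1, Kdr, Tek and Emcn, were at most 6.77 CPM in either. Egfl7 fell, a call lost with DESeq2, with total UMIs as the scale, without marked doublets and with the stricter rule. The macrophage genes summed to at most 2.26 CPM and none was tested.

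Of 11 neural genes, 5 rose (Sox2, Nes, Zic1, Elavl3 and Neurod1) and 2 fell (Pax3 and Otx2). Elavl3, a neuronal gene, was at 0 at E8.5 and at 7.38 and 10.47 CPM at E10.5, at least 14.7-fold higher against 3 UMIs. The neural rises numbered 3 without marked doublets, 2 without the clusters led by another cell type (Sox2 and Elavl3), 2 with DESeq2 and 1 thinned to 12000 UMIs, and the change of Neurod1 was 3.51, or 2.23 without E10.5 replicate 2. One of 5 neural crest genes rose, Tfap2b, which ectoderm also expresses. Of 8 nephric duct genes, Lhx1, Gata3 and Emx2 rose, but 1 rose without the clusters led by another cell type, where Lhx1 read -0.89 on the log2 scale. Of 11 gut endoderm genes, Foxa1, Shh and Isl1 rose and Cdx2 fell, with Foxa1 at 0.167, 1.55 and 3.70 CPM and Shh at 0, 0.971 and 2.88 CPM. DESeq2 called none of these 11 upwards and 1 downwards. None of 10 visceral endoderm and liver genes and none of 6 primordial germ cell genes was called at a threshold of 0.05, and Shh and Cdx2 were the genes called among 5 of notochord and tailbud.

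To see which changes were not shared by Foxa2-positive epithelium of the same libraries, the stage change in members was compared with that in Foxa2-positive barcodes, in which a shift common to a library drops out. The difference passed for 43 of 12369 genes (0.348%), 25 with a higher stage change in members (0.202%) and 18 with a lower one (0.146%). With the library as a replicate block the count was 79, 44 and 35 by direction, and every gene named here was called in both fits. DESeq2 called 23 genes, and of those named below not Gap43, Gpx2, Mt2 and Phlda2. With the remaining Epcam-positive class in place of Foxa2-positive barcodes 34 genes were called, and of the genes named below Fgf8, Ckb and Myl3 kept their call and the others lost it. Foxa2-positive barcodes numbered 78 to 91 a library.

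Fgf8 differed in direction between the classes. It read 39.9, 140.5 and 119.9 CPM in members and 49.2, 37.7 and 30.1 CPM in Foxa2-positive barcodes, a log2 difference of 2.24 ± 0.26 (SE, edgeR adjusted p = 0.00035). Sfrp1 read 12.7, 34.6 and 41.1 CPM against 42.7, 32.8 and 24.8 CPM, a difference of 2.13 ± 0.34 (SE, edgeR adjusted p = 0.0038). Tgfb2, a TGF-beta ligand, read 4.19, 15.2 and 11.9 CPM against 21.1, 9.31 and 12.7 CPM. In these 3 genes both E10.5 libraries lay above E8.5 in members and below it in Foxa2-positive barcodes. All 3 differences lost their call when counts were thinned to 5000 UMIs after the rule, Sfrp1 also without marked doublets and thinned to 12000 UMIs, and Tgfb2 also with the stricter rule, thinned to 12000 UMIs and without the clusters led by another cell type and by Pax1 and Pax9. Ckb rose in members by 1.79 ± 0.30 more, and Cdkn1c by 1.29 ± 0.23 more. Ckb lost its call without marked doublets and with the stricter rule, and Cdkn1c without mixed barcodes.

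The glutathione peroxidase gene Gpx2, at 13.7, 17.5 and 13.96 CPM in members, read 54.9, 14.7 and 18.5 CPM in Foxa2-positive barcodes and differed by 1.93 ± 0.32 (SE, edgeR adjusted p = 0.0054). Trh, a hormone precursor gene of early endoderm, had the largest difference but only 1, 12 and 1 UMIs in members, against 74.8, 1.96 and 0 CPM in Foxa2-positive barcodes. It differed by 8.87, or by 11.22 without E10.5 replicate 1. The muscle gene Myl3 read 2.34, 17.1 and 14.99 CPM against 21.5, 4.90 and 4.75 CPM, and its stage change in members turned to -0.26 without the clusters led by another cell type. The differences of Trh and Myl3 lost their call without marked doublets, with the stricter rule and in both added thinnings. They also lost it without the clusters led by another cell type, and Myl3 without mixed barcodes.

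Stage changes that were lower in members included that of Phlda2, which differed by -2.82 ± 0.53 (SE, edgeR adjusted p = 0.015) and read 32.9, 6.86 and 22.7 CPM in Foxa2-positive barcodes. Its difference was -3.56 without E10.5 replicate 1 and -1.68 without E10.5 replicate 2. The differences of Gpx2, Mt2 and Sfrp1 moved by more than their SE without E10.5 replicate 1. The urea-cycle gene Arg1 read 28.5, 13.6 and 13.3 CPM in members and 48.0, 84.8 and 113 CPM in Foxa2-positive barcodes, a difference of -2.11 ± 0.27 (SE, edgeR adjusted p = 0.0007). The metal-binding genes Mt1 and Mt2 were high in members at both stages, Mt2 at 739, 815 and 673 CPM, and low in Foxa2-positive barcodes at E8.5 alone, at 102, 570.3 and 316 CPM. The homeobox gene Onecut2 read 7.70, 5.25 and 5.34 CPM against 2.85, 47.5 and 26.9 CPM. Gap43, a growth-associated gene of neurons, read 44.2, 25.8 and 23.4 CPM against 8.54, 36.7 and 14.2 CPM, a difference of -2.43, or -1.64 without E10.5 replicate 1. Calls were lost with the stricter rule for Gpx2, Onecut2 and Gap43, and without marked doublets for Gap43. They were also lost thinned to 12000 UMIs for Gpx2, Arg1, Mt1, Mt2 and Gap43, and thinned after the rule for Arg1 and Gap43.

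Members were also clustered without the 8 genes of the rule, which gave 11 clusters at a resolution of 0.6, 8 at 0.3 and 14 at 1.0. At 0.3 the cluster led by muscle genes joined the one led by Pitx1 (146 members), both E8.5 clusters joined each other (144) and the cluster led by En1 joined the largest (162). At 1.0 the largest cluster kept 67.6% of its members together, that led by Pitx1 51.0%, that led by Phlda2 65.2% and that led by muscle genes 54.2%. Leading genes define a cluster and are a description, with no test. The clusters divided by stage: 92 and 52 members formed clusters seen in E8.5 alone, and 98, 63, 19 and 12 members clusters seen in E10.5 alone, each with both E10.5 libraries.

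The largest cluster, 142 members, held 0.535%, 35.4% and 30.3% of the members of the 3 libraries. It was led by Nmnat2, Tfap2b, Emp1, Cxcl14, Cdx1, Kremen2 and Wnt4, and had Wnt6 at 478 CPM, Trp63 at 114 CPM, Krt14 at 45.2 CPM and Krt5 at 21.2 CPM. Cdx1 was held by 14.1% of its members, Nmnat2 by 40.1% and Tfap2b by 77.5%. The largest cluster also had 5 of 9 erythroid markers at least 2-fold above the other members, with Hbb-y at 418 CPM against 154 CPM. A second E10.5 cluster, of 98 members, was led by Pitx1, Six3, Dlk1, Aldh1a3, Six6 and Foxe1. It is called oral and pharyngeal ectoderm-like, from 4 of the 9 markers, among them Pitx1, Isl1 and Foxe1, at least 2-fold above the other members. Pitx1 stood at 228 CPM against 13.9 CPM, and Fgf8 at 266 CPM. Another of the 9, Tbx1, was lower, at 2.84 CPM against 12.8 CPM. Of 20 cranial placode markers, 4 (Eya2, Pax6, Sox2 and Six3) were also at least 2-fold above the other members. A cluster of 63 members was led by Rarres1, Pax1, Pax9 and Nkx2-6, with Fgf8 at 213 CPM and Isl1 at 107 CPM, and was left unnamed. Of these members 15.9% held a UMI of Rarres1, 25.4% of Pax1, 41.3% of Pax9 and 55.6% of Nkx2-6. Pax1 and Pax9 are known from pharyngeal pouch endoderm. In this cluster the endoderm gene Foxa1 stood at 10.53 CPM against 0.824 CPM in other members, Tbx1 at 51.9 CPM against 7.28 CPM, Tfap2b at 1.40 CPM against 70.9 CPM, Perp at 14.7 CPM against 95.7 CPM, Trp63 at 27.4 CPM and Krt14 at 0 CPM.

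The E8.5 clusters were led by Phlda2, Rhox5, Tal2 and Has2 (92 members, Phlda2 at 268 CPM against 16.8 CPM) and by Pax3, Utf1, Bmp2, Batf3 and Slc2a3 (52 members, Pax3 at 55.0 CPM against 12.01 CPM). Of the 92 members, 8.70% held a UMI of Rhox5 and 50% one of Phlda2. A posterior cluster of 45 members held 30, 8 and 7 members and was led by Cdx2, at 263 CPM against 5.03 CPM, and by Hoxc10, Hoxa9, Hoxd9 and Hoxa7. A cluster of 32 members, 6, 13 and 13 by library, was led by Oc90, Rgcc, Gbx2, Tbx2, Hmx2 and Lmx1a. It is called cranial placode-like, from 5 of 20 markers, among them Eya1, Pax2, Oc90 and Sox10, and Trp63 was at 2.06 CPM in it. A cluster of 19 members led by En1, Sct and Tagln, with Bhlha9 and Msx2 at 162 and 159.8 CPM, had Fgf8 at 7.27 CPM and was left unnamed.

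**Figure D5:**
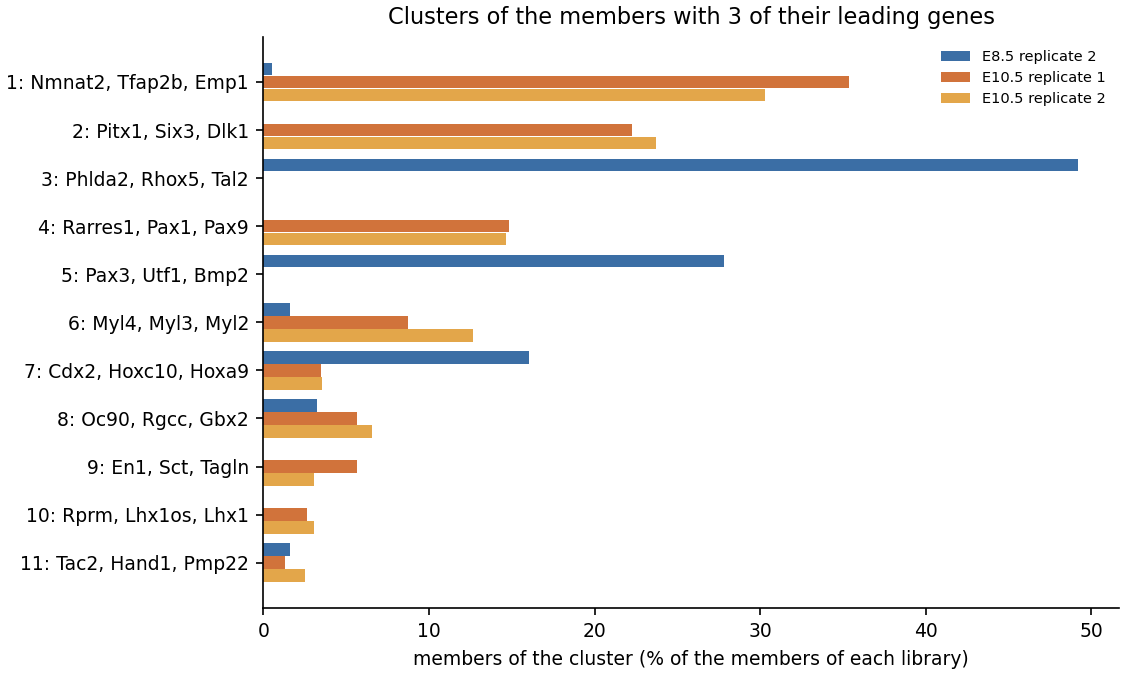
Percentage of the members of each library (bar colours) in each of the 11 clusters, which are labelled with 3 of their leading genes. Clusters 3 and 5 hold E8.5 members alone, clusters 2, 4, 9 and 10 hold E10.5 members alone, and the largest cluster holds 35.4% and 30.3% of the members of the E10.5 replicates.

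Other clusters went against the label. A cluster of 48 members, 3, 20 and 25 by library, was led by the muscle genes Myl4, Myl3, Myl2, Actc1, Tnnt2 and Myl7 and had 4 of 6 endothelial, 6 of 13 mesenchyme and 5 of 11 neural markers at least 2-fold above the other members, with Twist1 at 85.0 CPM against 9.31 CPM and Elavl3 at 40.3 CPM against 1.13 CPM. Its median was 34992 UMIs, 37 of its 48 members were marked as doublets and 12 were mixed barcodes. A cluster of 12 E10.5 members was led by Rprm, Lhx1os and Lhx1 and is called nephric duct-like, from 7 of 9 markers (Pax2, Pax8, Lhx1, Gata3, Wnt9b, Ret and Emx2). It had Trp63 at 4.46 CPM, Krt5 and Krt14 at 0 CPM and Wnt6 at 134 CPM. A last cluster of 11 members was led by Tac2, Hand1, Pmp22 and Cryab, had Krt8 at 571 CPM and Trp63 at 8.12 CPM, and was left unnamed. Without the muscle-led and nephric duct-like clusters, 1797 genes changed with stage, 899 upwards and 898 downwards, of which 1717 were among the 2124 changed genes of all members, and Twist1 rose by 3.79. With the cluster led by Pax1 and Pax9 left out as well, 1673 genes changed, of which 1545 were among the 2124. Of the Hox genes 2 then rose and 3 fell, of the cranial placode genes 3 rose and 1 fell, and of the apical ridge genes 3 rose and none fell.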

How the data were processed

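Single-cell suspensions of E8.5 and E10.5 embryos were sequenced on the 10x Genomics platform. The deposited files hold whole UMI counts for 27998 genes in each barcode, which the authors had not normalized. The submitters' processing notes name Cell Ranger 2.1.1, Seurat 3.1.1 and the mm10 build, whereas the headers of the embryo matrices name software version 3.1.0, and the labels and the paper differ on the version of the chemistry and on the enzyme of digestion. The counts were not corrected for free RNA. The embryo matrices list every barcode, and barcodes with at least 2000 UMIs and 500 genes were kept here, with doublets kept in the main analysis.

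Counts were summed per library and class of Epcam-positive barcode (members, Foxa2-positive, Ttr-high, remaining; sums of at least 10 barcodes). The 12 sums were fitted with edgeR 4.0.16 in R 4.3.3 (quasi-likelihood test, TMM, filterByExpr, a mean for each class and stage, Benjamini-Hochberg adjustment over all genes, threshold 0.05), after the scripts had been tested on simulated data. Genes were named as the 12 largest rises and 12 largest falls with at least 20 CPM at the higher stage, the 6 largest differences of stage changes each way, the 15 genes highest against other Epcam-positive barcodes, and the genes of 32 lists. A few genes that meet these rules are not reported here. Clusters came from leidenalg 0.10.2 at a resolution of 0.6 (1000 variable genes, 20 components, 15 neighbours found with scikit-learn 1.9.0). Endothelial barcodes had at least 2 UMIs of Cdh5 and none of Epcam. The members, the lists and this rule were chosen with earlier results of these data known. Intervals are exact at 95% and cover counting error only. Doublets were marked with Scrublet, run in scanpy 1.11.5, at the rate expected from the number of barcodes where its own threshold marked under 0.5%.

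Alternatives were DESeq2 1.42.0, total UMIs as the scale, no filter on low counts, thinning to 5000 UMIs, a mitochondrial ceiling of 5%, leaving out doublets, mixed barcodes or each E10.5 library, a stricter rule (5 UMIs of Epcam, marker sum of 4), the library as a block, and another comparison class. Thinning to 12000 UMIs, thinning after the rule and leaving out clusters led by another cell type, also with the cluster led by Pax1 and Pax9, were chosen after seeing the data. The numbers of E10.5 replicates do not pair animals across stages. Differences between the E10.5 libraries correlated between classes at -0.0027 to 0.059 over 12369 genes. Counting error lowers such a correlation, so it does not show that the classes of a library vary independently.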

Additional observations from a re-analysis of the deposited data

Results flagged for a closer look

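The stage change differed between members and Foxa2-positive barcodes for 43 genes, by edgeR's test of the difference itself at an adjusted p under 0.05. Those named by the rule or held in a list are given with their log2 differences, positive where members rose more. Signals and their regulators were Fgf8 (2.24), Sfrp1 (2.13), Fst (3.26) and Tgfb2 (2.64). Cell cycle and growth genes were Ccnd1 (0.96), Cdkn1c (1.29) and the imprinted H19 (-0.64), and metabolic genes were Ckb (1.79), Gpx2 (1.93) and Arg1 (-2.11). Phlda2 (-2.82), Gap43 (-2.43), Onecut2 (-4.24), Mt1 (-1.92) and Mt2 (-2.10) had a lower stage change in members than in Foxa2-positive barcodes, in which all of them but Phlda2 were higher at E10.5.

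Genes better known from other cell types were among them. Trh (8.87) held 1, 12 and 1 UMIs in the members of the 3 libraries. Col3a1 (5.63) stood at 0.502, 9.91 and 9.45 CPM in members and at 2.85, 1.47 and 0.527 CPM in Foxa2-positive barcodes. The muscle genes Myl3 (4.91) and Tnni1 (4.19) stood in members at 2.34, 17.1 and 14.99 CPM and at 6.03, 18.1 and 26.9 CPM, most of it in the cluster led by muscle genes, where they read 79.5 and 92.7 CPM against 2.19 and 6.49 CPM in other members.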

How the results depend on the processing

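E8.5 has 1 library and each E10.5 library weighs heavily, so depth and library limit every stage change. The count of genes changed with stage (2124) fell to 982 with DESeq2, 1200 with the stricter rule, 86 when barcodes were thinned to 5000 UMIs before the rule, 610 when thinned to 12000 UMIs and 797 when thinned after the rule. These thinnings left 1887, 9176 and 8544 genes to test, beside 12369 in the main fit. The count of differences between members and Foxa2-positive barcodes (43) became 23 with DESeq2, 143 without the filter, 26 without marked doublets, 23 with the stricter rule, 72 without mixed barcodes, 79 with the library as a replicate block, 15 and 28 under the 2 added ways of thinning, and 34 against the remaining class, where 5 of the 19 genes reported kept their call (Fgf8, Ckb, Fst, Myl3 and Tnni1). The replicate block changed no other call named here. No paired analysis was possible because stage lies between libraries for the stage change itself, and thinning to 5000 UMIs left too few Foxa2-positive barcodes at E8.5 for a difference. Without either E10.5 library no residual degrees of freedom remained, so fold changes but no tests were computed, and none of them changed sign. The causes were not tested. Thinning before the rule changed the barcodes, the UMIs and the genes tested together.

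The share of members at E8.5 moved from 3.31% to 0.193% and 1.92% when thinned to 5000 and 12000 UMIs, 1.89% with the stricter rule and 2.23% without Wnt6. In E10.5 replicate 1 the same settings gave 0.183%, 1.12%, 0.627% and 1.23%, and in replicate 2 0.138%, 0.878%, 0.490% and 1.04%. Genes at least 2-fold lower in members numbered 29 against Foxa2-positive barcodes alone, 5 against the remaining class alone and 48 with thinned counts.

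Log2 stage changes that changed sign were, thinned to 5000 UMIs, Ccnd1 -0.048, Cldn7 0.30, Col4a1 -0.42, Crabp2 0.26, Ifitm1 0.71, Ntf5 -0.33, Rhox5 3.19 and Tfap2b -0.41. Without mixed barcodes they were Tnni1 -0.25 and Tnnt2 -0.87. Thinned to 12000 UMIs they were Actc1 -0.99, Hand1 1.24, Myl3 -0.38, Myl4 -1.68, Myl7 -0.51 and Tnni1 -1.62, and thinned after the rule Cldn7 0.083. Without the clusters led by another cell type they were Lhx1 -0.89, Myl3 -0.26, Myl7 -0.075 and Tnnt2 -0.67, and also without the cluster led by Pax1 and Pax9 Lhx1 -0.63, Myl3 -0.36, Myl7 -0.043, Neurog2 -0.60 and Tnnt2 -0.53. Among differences, H19 became 0.024 against the remaining class, and Mt1 0.15 and Tnni1 -0.22 when thinned to 12000 UMIs. The other gene values kept their direction, with 436 no longer past the threshold and 53 fold changes that moved without an E10.5 library.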
